A study of Homo sapiens with 12 samples.

Results

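The 10 genes described here encode the enzymes and regulators that make, hold in balance, and break down polyamines. They are ODC1, AMD1, SRM, and SMS for synthesis, OAZ1, OAZ2, and AZIN1 for the control of ODC1, and SAT1, PAOX, and SMOX for catabolism. They were chosen by symbol in the table of raw counts, where each symbol had a single row, and were 10 of 58735 genes in the table. A count in at least 1 library was found for 29789 of those genes, and all 10 polyamine genes passed the filter on low counts in each comparison.

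RNA sequencing was carried out on TIGK cells, a line of gingival keratinocytes immortalized with human telomerase (hTERT). All cells were grown in 48 mM glucose in a base medium made without arginine, to which pituitary extract, insulin, and other supplements were added. Arg-treated cells received 500 μM L-Arginine (Arg) and the untreated control received none, and cells were collected after 24 or 48 h. There were 3 libraries, A, B, and C, in each of the 4 groups, from wells of a single cell line. The p-values therefore measure the spread between these wells, and other gingival donors were not sampled. Time of treatment and time in culture cannot be told apart.

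Polyamines are small positively charged molecules that bind nucleic acids and are needed for growth of animal cells. Arginase turns arginine into ornithine, and ODC1 removes the carboxyl group of ornithine to give putrescine, the committed step of synthesis. AMD1 makes decarboxylated S-adenosylmethionine, from which SRM and SMS take an aminopropyl group to build spermidine and then spermine. Antizymes, encoded by OAZ1 and OAZ2, bind ODC1 protein and send it to the proteasome, and AZIN1 resembles ODC1 but holds antizyme instead of making putrescine. SAT1 acetylates spermidine and spermine, PAOX oxidizes the acetylated forms, and SMOX oxidizes spermine itself. ODC1, AMD1, SAT1, and the antizymes are also set through translation or protein decay, which RNA counts do not measure.

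The libraries held between 16542243 and 19040964 counts. Of the keratinocyte markers, 10 of 10 reached a mean of 1 CPM, a count scaled to the size of its library, in every group, with KRT5 the highest and a summed level of 43258 to 55709 CPM. Immune markers reached 1 CPM in 0 of 5 cases, with a summed level of at most 0.450 CPM, and the summed endothelial and melanocyte markers stayed at or below 2.13 and 3.06 CPM. Fibroblast markers, led by DCN, reached 1 CPM in 2 to 3 of 7 cases and summed to 30.2 to 54.4 CPM at 24 h and to 72.7 to 103 CPM at 48 h. Control 48 h replicate B stood apart from the other wells of its group, with a chi-square per degree of freedom of 20.9 and 23.9 against replicates A and C, compared with 3.66 to 12.5 within the other pairs. The share of counts from mitochondrial genes ran from 0.707% to 1.55% in the control at 48 h, with replicate B the highest, and from 1.14% to 1.31% with Arg. At 24 h this share was 1.20% to 1.30% in the control and 0.624% to 0.802% with Arg.

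To compare genes with each other, CPM was divided by the deposited gene length in kilobases, which gives a level per length (FPKM). ODC1 had the highest FPKM of the 10 genes in every group, at 217 ± 32.2 FPKM (SD, n = 3) in the control and 211 ± 36.8 with Arg at 24 h. At 48 h its level was 123 ± 10.3 FPKM in the control and 114 ± 3.32 with Arg. In the control at 24 h ODC1 was followed by SRM at 163 FPKM, SMS at 112, OAZ1 at 92.8, SAT1 at 59.5, AZIN1 at 40.0, AMD1 at 30.5, OAZ2 at 7.20, SMOX at 5.40, and PAOX at 1.68 FPKM. No neighbours in that order overlapped between libraries.

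**Figure D1:**
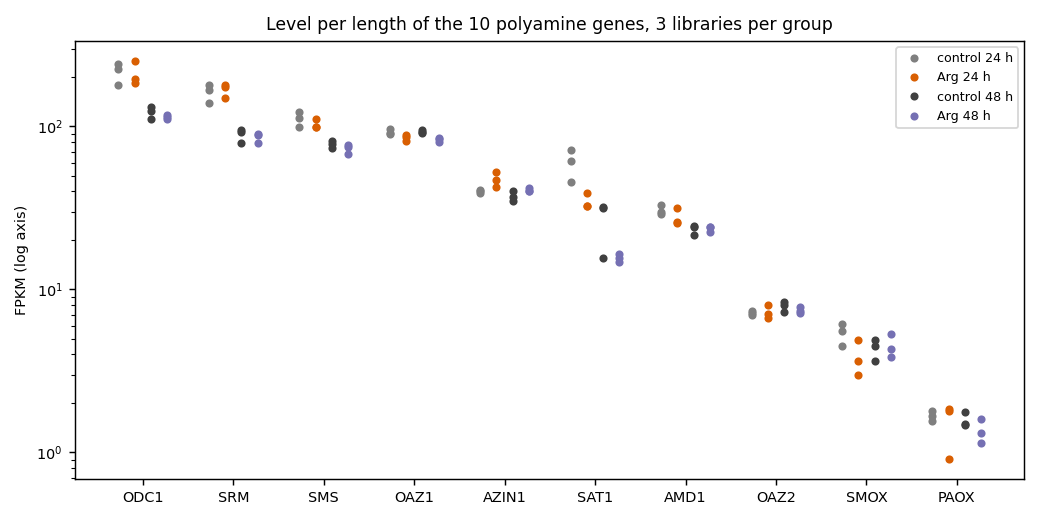
Level of each polyamine gene in FPKM on a log axis, with 1 point per library and 3 libraries in each of the 4 groups. ODC1 led in every group and PAOX was the lowest, at 1.35 to 1.68 FPKM on average, while SAT1 moved from the fifth place in the control at 24 h to the seventh with Arg at 48 h.

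The order changed between groups mainly through SAT1, SRM, and OAZ1. With Arg at 24 h AZIN1, at 47.2 ± 5.15 FPKM, stood above SAT1, at 34.8 ± 3.85 FPKM, and their libraries did not overlap. In the control at 48 h OAZ1 at 92.9 FPKM, SRM at 89.0, and SMS at 77.7 formed a run in which neighbours overlapped, as did SAT1 at 26.5 and AMD1 at 23.4 FPKM. With Arg at 48 h SRM at 85.8 and OAZ1 at 82.9 FPKM overlapped, and SAT1, at 15.6 ± 0.869 FPKM, was below AMD1, at 23.7 ± 0.916. The deposited lengths join the exons of all transcripts of a gene, so the FPKM of a gene with a long rare isoform is understated. The order of the genes, with ODC1 first, rests on these lengths.

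ODC1 (ENSG00000115758; GRCh38, chromosome 2, 10439968 to 10448504, minus strand) was studied first as the entry point from ornithine. Its CPM at 24 h was 673, 537, and 721 in control replicates A, B, and C, and 753, 578, and 552 with Arg. At 48 h it was 372, 331, and 391 in the control and 329, 342, and 349 with Arg. In bulk RNA, fewer cells that express a gene and less RNA per cell cannot be told apart. Every library at 48 h lay below every library at 24 h, whereas control and Arg overlapped at both times. The Arg minus control difference was -0.038 on the log2 scale (standard error (SE) 0.12, edgeR adjusted p = 0.883) at 24 h and -0.10 (SE 0.069, adjusted p = 0.541) at 48 h. From 24 to 48 h ODC1 fell by 0.82 (SE 0.10, edgeR adjusted p = 0.00140) in the control, or 1.76-fold, and fell by 0.88 (SE 0.088, adjusted p = 5.45e-07) with Arg, or 1.84-fold.

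SRM (ENSG00000116649; chromosome 1, 11054584 to 11060024, minus strand), which forms spermidine, was lower at 48 h by about as much as ODC1. SRM CPM was 342, 264, and 319 in the control and 340.2, 334, and 282 with Arg at 24 h, and 175, 150.3, and 182 in the control and 150.0, 171, and 168 with Arg at 48 h. The times were separated in every library and the treatments were not. SRM fell by 0.87 (SE 0.10, edgeR adjusted p = 0.00104) in the control and by 0.97 (SE 0.078, adjusted p = 4.53e-08) with Arg between 24 and 48 h. The Arg difference was 0.044 (adjusted p = 0.833) at 24 h and -0.056 (adjusted p = 0.796) at 48 h.

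SMS (ENSG00000102172; chromosome X, 21940573 to 21994835, plus strand), which forms spermine, stood at 265, 216, and 243 CPM in the control and 239.6, 215, and 216 CPM with Arg at 24 h. At 48 h SMS was at 168, 159, and 177 CPM in the control and 147, 161, and 166 CPM with Arg. SMS fell by 0.52 (SE 0.086, edgeR adjusted p = 0.00323) in the control and by 0.50 (SE 0.071, adjusted p = 3.20e-05) with Arg, about 1.43-fold and 1.41-fold. Its Arg difference was -0.11 (adjusted p = 0.471) at 24 h and -0.091 (adjusted p = 0.595) at 48 h.

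AMD1 (ENSG00000123505; chromosome 6, 110874770 to 110895713, plus strand), which supplies the aminopropyl donor, changed least of the 4 synthesis genes with time. Its CPM was 231, 205, and 209 in the control and 223, 179, and 183 with Arg at 24 h, and 151, 172, and 170.0 in the control and 171, 169, and 159 with Arg at 48 h. AMD1 fell by 0.38 (SE 0.081, edgeR adjusted p = 0.00848) in the control, a call lost without control 24 h replicate A (adjusted p = 0.0573). With Arg it fell by 0.23 (SE 0.081, adjusted p = 0.0401). The latter call was lost with scaling by library size alone (-0.17, adjusted p = 0.126), in a model of all 12 libraries (adjusted p = 0.0596), and without Arg 24 h replicate A (-0.12, adjusted p = 0.176), Arg 48 h replicate A (adjusted p = 0.0670), Arg 48 h replicate B (adjusted p = 0.104), or Arg 48 h replicate C (adjusted p = 0.149). Arg itself moved AMD1 by -0.14 (adjusted p = 0.384) at 24 h and 0.015 (adjusted p = 0.948) at 48 h, with overlapping libraries.

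**Figure D2:**
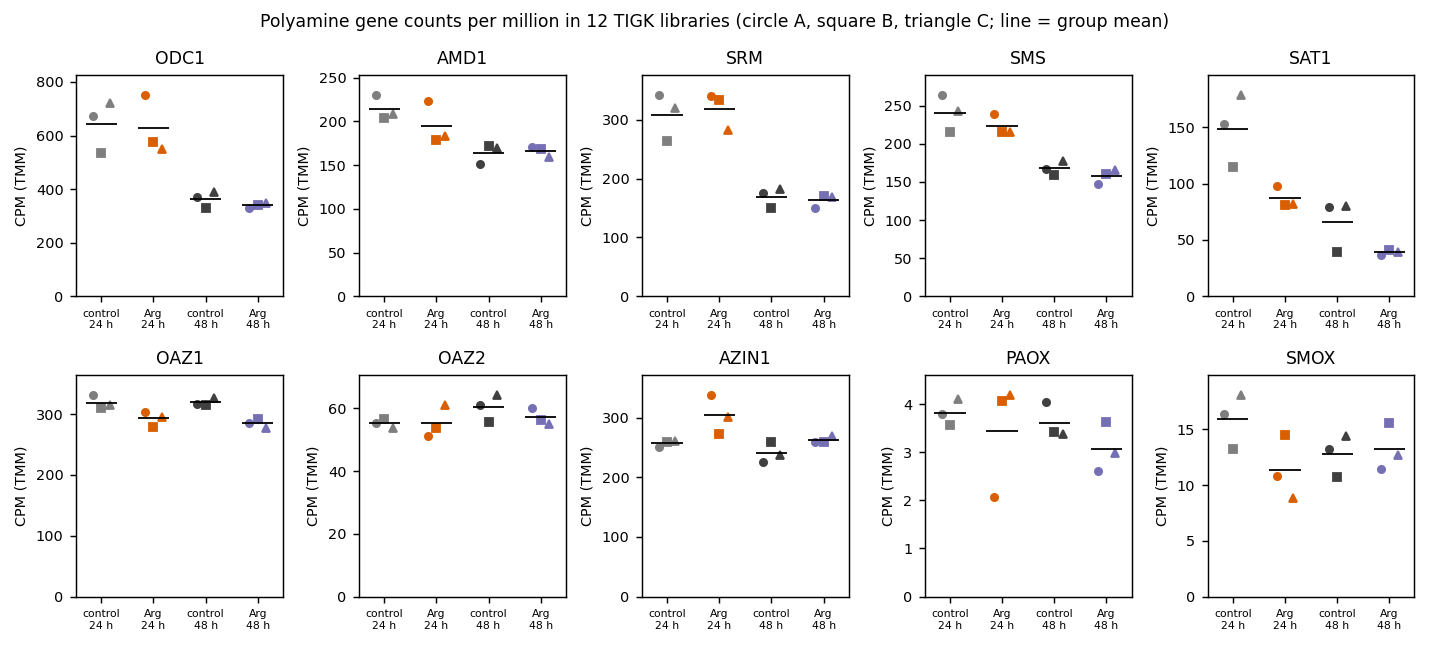
CPM of each gene in the 12 libraries, from 0, with circles, squares, and triangles for wells A, B, and C and a line at the group mean. ODC1, SRM, and SMS stepped down between 24 and 48 h in both treatments, while for SAT1 all Arg libraries at 24 h lay below the controls and control 48 h replicate B, at 39.1 CPM, lay among the Arg libraries.

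In the control of ODC1 protein, OAZ1 (ENSG00000104904; chromosome 19, 2269509 to 2273490, plus strand) was the more abundant antizyme transcript, at 92.8 FPKM against 7.20 FPKM for OAZ2 in the control at 24 h. OAZ1 CPM was 331, 309.7, and 316 in the control and 304, 279, and 296 with Arg at 24 h. At 48 h it was 316, 315, and 326 in the control and 286, 292, and 277 with Arg. All Arg libraries lay below the control libraries at both times, yet the difference was small, -0.12 (SE 0.074, edgeR adjusted p = 0.340) at 24 h and -0.17 (SE 0.058, adjusted p = 0.242) at 48 h. Neither difference was called. With so few libraries per group such separation can arise by chance, and the share of all genes that separate was not counted. Time moved OAZ1 by 0.0043 (adjusted p = 0.971) in the control and -0.039 (adjusted p = 0.699) with Arg.

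OAZ2 (ENSG00000180304; chromosome 15, 64687573 to 64703281, minus strand) ranged from 51.4 to 64.3 CPM over the 12 libraries, and its groups overlapped in each comparison. The Arg difference of OAZ2 was 0.0057 (SE 0.093, edgeR adjusted p = 0.978) at 24 h and -0.081 (SE 0.080, adjusted p = 0.693) at 48 h. The time difference was 0.13 (adjusted p = 0.301) in the control and 0.044 (adjusted p = 0.749) with Arg.

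AZIN1 (ENSG00000155096; chromosome 8, 102826357 to 102893864, minus strand), the antizyme inhibitor, was the member with the highest positive difference at 24 h. Its CPM was 250.5, 259.7, and 261 in the control and 338, 272, and 301 with Arg at 24 h, so that all Arg libraries lay above the control. As for OAZ1, such separation can arise by chance, and the share of all genes that separate was not counted. At 48 h AZIN1 was at 225, 259, and 237 CPM in the control and 259, 259, and 269 CPM with Arg. The Arg difference was 0.24 (SE 0.084, edgeR adjusted p = 0.0977) at 24 h and 0.12 (SE 0.066, adjusted p = 0.442) at 48 h, both short of the threshold. With Arg, AZIN1 fell by 0.21 (SE 0.074, adjusted p = 0.0406) from 24 to 48 h. That call was lost with scaling by library size alone (-0.15, adjusted p = 0.140), in a model of all 12 libraries (adjusted p = 0.0562), and without any of the 6 libraries except Arg 24 h replicate B (adjusted p from 0.0744 without Arg 48 h replicate C or 0.0761 without Arg 24 h replicate C, through 0.113 and 0.151 without Arg 48 h replicates A and B, to 0.144 and a difference of -0.13 without Arg 24 h replicate A). In the control the time difference was -0.094 (adjusted p = 0.404).

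Among the catabolic genes, SAT1 (ENSG00000130066; chromosome X, 23783173 to 23786226, plus strand) was downregulated by Arg at 24 h. SAT1 CPM was 152, 115, and 179 in control replicates A, B, and C and 98.1, 81.3, and 81.5 with Arg, and the groups did not overlap. The mean was 149 ± 32.3 (SD, n = 3) in the control and 86.9 ± 9.62 with Arg, a log2 difference of -0.78 (SE 0.13, edgeR adjusted p = 0.00129) or 1.71-fold lower. It ranked 106 of 14279 genes by p and was the only polyamine gene called at that time, and the call held in all 7 other settings and without each library in turn. The lower share of mitochondrial counts with Arg at 24 h moved with this result, and its part was not tested. At 48 h that share overlapped between the control (0.707% to 1.55%) and Arg (1.14% to 1.31%).

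At 48 h SAT1 was at 79.1, 39.1, and 80.1 CPM in the control and 36.9, 41.3, and 38.9 CPM with Arg. Control replicate B lay within the Arg range, and the other control wells were well above it. The difference of -0.76 (SE 0.20, edgeR adjusted p = 0.170) had the size of that at 24 h but did not pass the threshold. Without control 48 h replicate B it was -1.03 (SE 0.075, adjusted p = 1.39e-09), and with no filter on low counts it passed the threshold (adjusted p = 3.51e-13). In all, SAT1 passed at 48 h in 2 of 7 other settings and in 1 of 6 fits with a library left out. The adjusted p reached 0.242 with DESeq2 and 0.645 in edgeR with a library left out. The difference between the Arg effects at the 2 times was 0.014 (SE 0.27, adjusted p = 0.998), which bounds a change only loosely.

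SAT1 was also the polyamine gene with the largest difference between times in both treatments. It fell by 1.17 (SE 0.23, edgeR adjusted p = 0.00609) in the control, or 2.25-fold, and by 0.90 (adjusted p = 0.00113) without control 48 h replicate B. With Arg it fell by 1.15 (SE 0.089, adjusted p = 3.11e-08), or 2.23-fold. The mean was 66.1 ± 23.4 CPM in untreated cells at 48 h and 39.0 ± 2.17 CPM in Arg-treated cells.

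SMOX (ENSG00000088826; chromosome 20, 4120980 to 4187747, plus strand) rested on 164 to 312 counts per library. Its CPM was 16.4, 13.3, and 18.1 in the control and 10.8, 14.5, and 8.81 with Arg at 24 h, and 13.3, 10.7, and 14.4 in the control and 11.4, 15.6, and 12.7 with Arg at 48 h. The Arg difference was -0.49 (SE 0.18, edgeR adjusted p = 0.103) at 24 h. It passed the threshold without control 24 h replicate B (-0.61, adjusted p = 0.0335), without Arg 24 h replicate B (-0.70, adjusted p = 0.0496), or with no filter on low counts (adjusted p = 0.0311). The Arg difference was 0.046 (adjusted p = 0.927) at 48 h, and that between the times was -0.31 (adjusted p = 0.188) in the control and 0.22 (adjusted p = 0.368) with Arg. The Arg effects at the 2 times differed by 0.54 (SE 0.25, unadjusted p = 0.0467, adjusted p = 0.713 by edgeR).

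PAOX (ENSG00000148832; chromosome 10, 133379234 to 133391694, plus strand) was close to the limit of this depth, at 37 to 78 counts per library. PAOX ranged from 3.56 to 4.11 CPM in the control and from 2.08 to 4.19 CPM with Arg at 24 h, and from 3.38 to 4.04 and 2.61 to 3.63 CPM at 48 h. Its Arg difference of -0.15 (SE 0.27, edgeR adjusted p = 0.792) at 24 h and of -0.24 (SE 0.24, adjusted p = 0.705) at 48 h was within the spread of the wells at this depth. The time difference was -0.077 (adjusted p = 0.838) in the control and -0.17 (adjusted p = 0.712) with Arg.

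**Figure D3:**
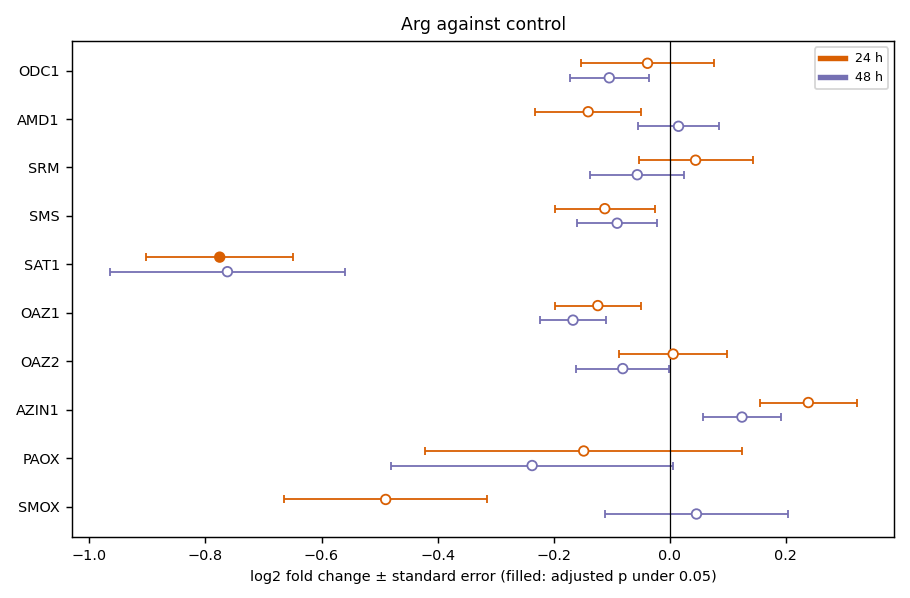
The log2 fold change of Arg against the control at 24 and 48 h with its standard error, for each polyamine gene, with filled points where the adjusted p was under 0.05. SAT1 at 24 h, at -0.78, carried the filled point, and SAT1 at 48 h lay at -0.76 with a wider error.

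Counted together, 0 of the 10 genes were higher and 1 was lower with Arg at 24 h at an adjusted p under 0.05, against 2.79% higher and 3.84% lower among all 14279 genes tested. At an unadjusted p under 0.05, the criterion used in the study, 1 gene (AZIN1) was higher and 2 (SAT1 and SMOX) were lower, against 10.8% and 11.9% of all genes. At 48 h edgeR called 0 of the 10 genes in either direction, against 0% higher and 0.117% lower among 14562 genes. Without control 48 h replicate B it called 4, namely SAT1, OAZ1 (-0.17, adjusted p = 0.0329), ODC1 (-0.17, adjusted p = 0.0383), and AZIN1 (0.18, adjusted p = 0.0265). The calls over all genes then rose to 1152 higher and 1213 lower among 14854 genes, from 0 and 17. At an unadjusted p under 0.05, 0 were higher and 2 (SAT1 and OAZ1) were lower at 48 h, against 5.94% and 7.49% of all genes. DESeq2 called 0 at 48 h as well, and gave no adjusted p for PAOX there. The median difference of the 10 genes was -0.12 at 24 h and -0.086 at 48 h, beside 0.0030 and 0.0018 for all genes tested.

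Between the times, 5 of 10 genes (ODC1, AMD1, SRM, SMS, and SAT1) were lower at 48 h and 0 were higher in the control, against 10% lower and 9.90% higher among 14449 genes. Those all-gene calls, 1431 higher and 1451 lower, dropped to 422 and 406 without control 24 h replicate A, to 497 and 501 without control 24 h replicate C, and to 912 and 920 without control 48 h replicate A. With Arg, these genes and AZIN1, 6 of 10, were lower and 0 were higher, against 14.0% lower and 14.3% higher among 14398 genes. With scaling by library size alone, 5 of the 10 genes were lower in the control and 4 with Arg, and the split of all called genes moved to 1845 higher and 1008 lower in the control, and from 2060 and 2012 to 2568 and 1453 with Arg. All 4 synthesis genes were thus lower at 48 h in both treatments with TMM scaling, while OAZ1, OAZ2, PAOX, and SMOX did not pass the test in either. The medians were -0.35 in the control and -0.22 with Arg, beside 0.012 and 0.00092 for all genes. The summed fibroblast markers, 30.2 to 54.4 CPM at 24 h and 72.7 to 103 CPM at 48 h, moved with time too, as did the mitochondrial share with Arg, which was 0.624% to 0.802% at 24 h and 1.14% to 1.31% at 48 h. The part of either was not tested. COL1A2, a fibroblast collagen gene, had 0 counts in the libraries of 24 h, whereas each of the 7 fibroblast markers had counts in both groups at 48 h.

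**Figure D4:**
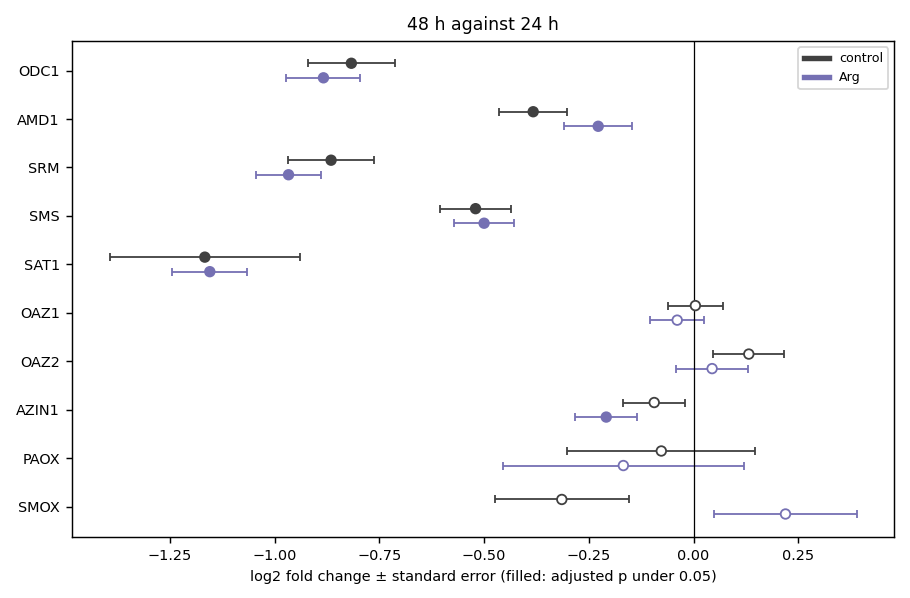
The log2 fold change of 48 h against 24 h with its standard error in the control and with Arg, with filled points where the adjusted p was under 0.05. SAT1, SRM, and ODC1 lay between -1.17 and -0.82 in both treatments, and the antizyme genes OAZ1 and OAZ2 lay between -0.039 and 0.13.

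The Arg effect at 48 h was then compared with that at 24 h in a model of all 12 libraries. None of the 10 genes was called by edgeR (0 higher and 0 lower), against 0.0132% higher and 0% lower among 15148 genes, and DESeq2 called 0 too, but gave no adjusted p for PAOX and SMOX. At an unadjusted p under 0.05, 1 (SMOX) was higher and 0 were lower, against 3.06% and 3.80% of all genes. The median was -0.053, beside -0.0057 for all genes.

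As polyamine levels depend on the balance of synthesis and breakdown, a pair of ratios of FPKM was formed within each library after the values had been seen. The SAT1 to ODC1 ratio was 0.269, 0.254, and 0.295 in the control and 0.155, 0.167, and 0.176 with Arg at 24 h, 1.64-fold lower with Arg and without overlap. At 48 h this ratio was 0.253, 0.140, and 0.243 in the control and 0.133, 0.144, and 0.133 with Arg, where replicate B of the control again lay among the Arg libraries. The AZIN1 to OAZ1 ratio was 0.404, 0.448, and 0.442 in the control and 0.594, 0.521, and 0.544 with Arg at 24 h, and 0.381, 0.440, and 0.388 in the control and 0.484, 0.475, and 0.520 with Arg at 48 h. It was 1.28-fold higher with Arg at 24 h and 1.23-fold higher at 48 h, with no overlap at either time. At 24 h the lack of overlap was given in advance, since all Arg libraries lay above the control for AZIN1 and below it for OAZ1. At 48 h the lack of overlap was nearly given. There OAZ1 did not overlap, and AZIN1 overlapped only between control replicate B (259.36 CPM) and Arg replicate A (259.14 CPM). With 3 libraries against 3, the 2-sided exact permutation test cannot give a p below 0.1. It gave p = 0.1 (Benjamini-Hochberg adjusted over 8 comparisons, 0.133) for the differences at 24 h and for AZIN1 to OAZ1 at 48 h, and p = 0.2 (adjusted 0.2) for SAT1 to ODC1 at 48 h by the exact permutation. For AZIN1 to OAZ1 the p was fixed before the test at 24 h and nearly fixed at 48 h, and the adjustment does not cover the choice of the pairs. Between the times, SAT1 to ODC1 differed by -0.41 in the control and -0.28 with Arg on the log2 scale (p = 0.1 in both, exact permutation test), and AZIN1 to OAZ1 by -0.10 (p = 0.2) and -0.16 (p = 0.1).

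**Figure D5:**
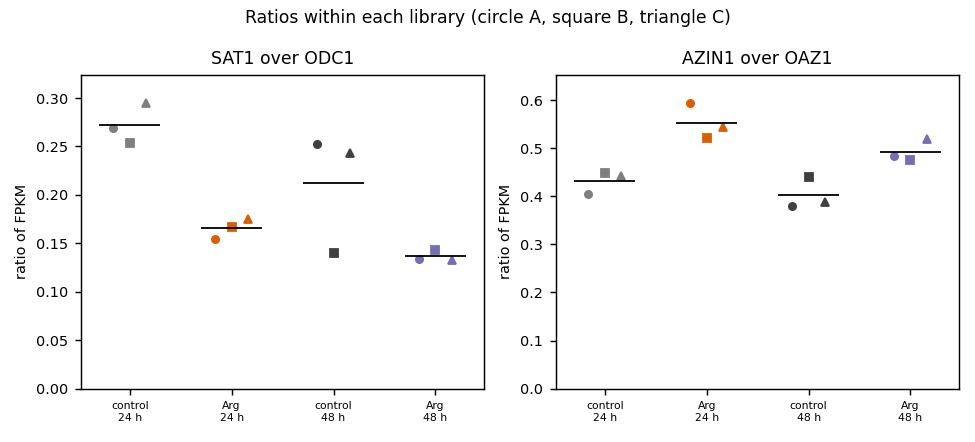
Ratios of FPKM within each library, from 0, for SAT1 over ODC1 and AZIN1 over OAZ1, with circles, squares, and triangles for wells A, B, and C and a line at the group mean. The AZIN1 to OAZ1 ratio was at least 0.475 in each Arg library and at most 0.448 in each control library. This pair was chosen after the values had been seen, and its separation was given in advance at 24 h and nearly so at 48 h.

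The neighbouring pathways were then examined. Of the enzymes that handle arginine and ornithine beside ODC1, 4 of 5 were tested, and ARG1, the arginase of liver, had 0 counts. At 24 h 2 of the 4 were lower with Arg and 0 were higher, against 3.84% and 2.79% of all genes. ARG2, the mitochondrial arginase, averaged 20.8 ± 2.98 CPM (SD, n = 3) in the control and 11.6 ± 2.07 with Arg, a log2 difference of -0.84 (SE 0.15, edgeR adjusted p = 0.00302). ARG2 lies across from VTI1B, which had 12078 counts against 2652 for ARG2, and the strand setting of the counting is not stated in the sources used here. OAT, which converts ornithine toward glutamate and proline, averaged 227 ± 14.1 CPM in the control and 178 ± 11.9 with Arg, a difference of -0.35 (SE 0.081, edgeR adjusted p = 0.0135). The OAT call was lost without control 24 h replicate A (adjusted p = 0.0820), Arg 24 h replicate B (0.0842), or Arg 24 h replicate C (0.0866).

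At 48 h 0 of these 4 enzymes were called by edgeR and 4 were lower at an unadjusted p under 0.05, against 7.49% of all genes. ARG2 stood at 10.6 ± 3.86 CPM in the control and 5.81 ± 1.17 with Arg (-0.86, edgeR adjusted p = 0.211), and OAT at 215 ± 34.7 and 175 ± 5.10 CPM (-0.30, adjusted p = 0.233). With no filter on low counts both passed the threshold (adjusted p = 0.000772 and 0.00497), and with DESeq2 neither did (adjusted p = 0.0747 and 0.0907). ARG2 passed in 2 of 7 other settings and OAT in 1 of 7, and each passed in 1 of 6 fits with a library left out. Without control 48 h replicate B the ARG2 and OAT differences were -1.13 (edgeR adjusted p = 9.57e-05) and -0.43 (adjusted p = 1.32e-05). The median over the list was -0.36 at 24 h and -0.33 at 48 h.

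In methionine activation and methylthioadenosine salvage, which recycles the by-product of SRM and SMS, 1 of 8 genes was lower with Arg at 24 h and 0 were higher, against 3.84% and 2.79% of all genes. This was ADI1, a dioxygenase of the salvage route, at 227 ± 0.815 CPM in the control and 187 ± 9.05 CPM with Arg (-0.28, SE 0.075, edgeR adjusted p = 0.0336). The ADI1 call was lost without control 24 h replicate A (adjusted p = 0.114) or C (0.107) and without Arg 24 h replicate B (0.147) or C (0.101). At an unadjusted p under 0.05, 1 gene was higher and 3 were lower at 24 h, against 10.8% and 11.9% of all genes. At 48 h edgeR called 0 of 8, against 0% higher and 0.117% lower. By unadjusted p, 1 was higher and 0 were lower at 48 h, against 5.94% and 7.49%. The higher gene was MAT1A at both times (0.63, edgeR adjusted p = 0.0588, and 0.58, adjusted p = 0.342). ADI1 differed by -0.15 (adjusted p = 0.469) at 48 h, or by -0.25 (adjusted p = 0.00452) without control 48 h replicate B. The list medians were -0.097 at 24 h and 0.027 at 48 h.

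No gene of the remaining lists was called with Arg at either time. For these, edgeR called 0 of 3 tested genes for hypusination (the use of spermidine to modify EIF5A), 0 of 7 for polyamine transport, and 0 of 9 for MYC and its partners. At an unadjusted p under 0.05, 0 of 3, 2 of 7, and 3 of 9 differed at 24 h, and 0 of 3, 2 of 7, and 3 of 9 at 48 h, where 10.8% of all genes were higher and 11.9% lower at 24 h, and 5.94% and 7.49% at 48 h. Of the paralogs OAZ3, AZIN2, and SATL1, 2 were tested at 24 h and 1 at 48 h. Of these edgeR called 0 at either time, and 1 (OAZ3) was higher at 24 h and 1 (AZIN2) lower at 48 h at an unadjusted p under 0.05. Both rested on few counts over the 12 libraries, 133 for OAZ3 and 174 for AZIN2. OAZ3 also lies across from MRPL9, which had 14259 counts. With time, hypusination genes were lower at 48 h in 2 of 3 cases in both treatments, against 10% of all genes in the control and 14.0% with Arg. EIF5A, the translation factor that carries hypusine, averaged 1867 CPM in the control at 24 h and 1265 CPM at 48 h (-0.56, edgeR adjusted p = 0.00246), and 1811 and 1258 CPM with Arg (-0.52, adjusted p = 1.51e-06).

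For MYC and its partners, 3 of 9 genes were lower and 1 was higher at 48 h in the control, and 2 were lower and 2 were higher with Arg. Over all genes, 10% were lower and 9.90% higher in the control, and 14.0% and 14.3% with Arg. MYC, whose protein binds E-boxes, is known to activate ODC1, and MYC and EIF5A are named here after their values were seen. A part of MYC in the lower level of the synthesis genes at 48 h was not tested. MYC averaged 607 ± 128 CPM (SD, n = 3) at 24 h and 363 ± 36.0 CPM at 48 h in the control (-0.74, edgeR adjusted p = 0.00418). With Arg it averaged 546 ± 34.3 CPM at 24 h and 309 ± 18.3 CPM at 48 h (-0.82, adjusted p = 6.42e-08). In the salvage list 2 of 8 genes were lower in the control, and 1 was lower and 1 higher with Arg. For arginine and ornithine enzymes 2 of 4 were lower in both treatments, and for transport 1 of 7 in each, beside the same shares of all genes. The transport gene was not the same, being ATP13A3 in the control and SLC3A2 with Arg.

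As the synthesis genes were lower together at 48 h, the 250 bases before their transcription starts were searched for short motifs on both strands in RefSeq promoters of GRCh38.p14. Windows were found for 7 of the 10 genes, and AZIN1, PAOX, and SMOX had none. The E-box CACGTG, the sequence bound by MYC with MAX, was found in 6.35% of all 35114 promoters. The TATA box TATAA was found in 18.9%, the CCAAT box in 32% (letters CCAAT), and the GC box GGGCGG in 42.6%. The stretches that hold the E-boxes, TATA boxes, and CCAAT boxes of ODC1, AMD1, SRM, and SAT1 are shown, 5′ to 3′ on the strand of the gene, with the motif in capitals (ATTGG is CCAAT on the other strand).
ODC1 TATA box (chr2:10448345-10448369, minus strand): ccgccggtgcTATAAgtagggagcg
ODC1 E-box (chr2:10448026-10448051, minus strand): gggccccgggCACGTGtgcggcgcgc
AMD1 TATA box (chr6:110874746-110874770, plus strand): agccgggataTATAAgggcggtgct
SRM E-box (chr1:11060202-11060227, minus strand): ggccgggcccCACGTGgcccctggag
SRM upstream CCAAT box (chr1:11060114-11060138, minus strand): gagccggtggCCAATgagcgccagg
SRM downstream CCAAT box (chr1:11060084-11060108, minus strand): ccgctttgccATTGGcgagcgcggg
SAT1 upstream CCAAT box (chrX:23783084-23783108, plus strand): ccgcggcctcATTGGatgagaggtc
SAT1 downstream CCAAT box (chrX:23783150-23783172, plus strand): ccgagccgggCCAATgttcaaat

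The ODC1 TATA box began 32 bases before the first of its 2 RefSeq starts, with 4 GC boxes further upstream. The ODC1 E-box began 29 bases before the second start, at a position within the annotated span of the gene. In SRM the E-box began 199 bases before the start, with CCAAT boxes at 110 and 80 bases and 6 GC boxes. AMD1 had its TATA box 29 bases before the start and 1 GC box directly after it, at the first of its RefSeq starts. SMS had 1 CCAAT box and 1 GC box and no E-box. SAT1 had CCAAT boxes at 79 and 13 bases and 0 matches to the other motifs. OAZ1, which did not pass the test with time, had 2 CCAAT boxes and 2 GC boxes, and OAZ2 had 1 GC box. E-boxes were thus found in 2 of the 4 synthesis genes, and a match in letters is not a bound site. Whether any of these motifs had a part in the changes with time was not tested. Both starts of ODC1 were searched, and the first had no E-box, while AMD1 was searched only at its first RefSeq start. As the genes had unequal numbers of windows, this count cannot be set against the 6.35% of single promoters.

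Finally, the genes closest to ODC1 and SAT1 across the 12 libraries were identified by Pearson correlation of log2 CPM among 15147 genes, as a description, since the libraries share their groups. The genes closest to ODC1 were NPM1, a nucleolar chaperone (r = 0.997), DCTD, a deoxycytidylate deaminase (r = 0.994), and CAV2, a caveolin (r = 0.990). NPM1 averaged 3150 CPM in the control and 3081 with Arg at 24 h, and 2301 and 2220 CPM at 48 h. Closest to SAT1 were TFPI2, a secreted protease inhibitor (r = 0.990), C1QBP, a mitochondrial matrix protein (r = 0.988), and PRSS3, a trypsinogen (r = 0.986). TFPI2 averaged 139 CPM in the control and 29.7 with Arg at 24 h, and 18.3 and 5.85 CPM at 48 h, and its groups stood in the same order as those of SAT1. C1QBP averaged 663, 547, 469, and 391 CPM in the same groups.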

How the data were processed

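The counts were deposited by the authors as raw whole numbers per gene, made with fastp, STAR on GRCh38/hg38, and featureCounts per the methods and the submitters' processing notes. The annotation release, strand setting, and versions are not given in the sources used here. The other column used is the deposited gene length, and 0 columns of samples were left out. Poly(A) RNA of 12 libraries (16542243 to 19040964 counts) was grouped by treatment and time from the labels.

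Each pair of groups was compared with edgeR 4.0.16 in R 4.3.3 (TMM, filterByExpr, quasi-likelihood test) without a block, and p-values were adjusted by Benjamini-Hochberg over all genes tested, with a threshold of 0.05. The interaction was tested in a model of 12 libraries. CPM used TMM factors over 12 libraries, and log2 CPM a prior count of 2. The overlapping or pseudogene rows of the 10 genes held at most 92 counts (AZIN1-AS1, against 57718 for AZIN1). The scripts were tested on simulated data.

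The genes and lists were chosen with earlier results of these data known. All 10 genes are named, as are list genes called at an adjusted p under 0.05 in an Arg comparison, up to 5 per list, and the 3 genes most like ODC1 and SAT1. Other list genes were named after their values were seen. Replicate letters were not taken to pair samples, since the labels do not tie them to a shared flask or day and not every correlation of deviations exceeded 0.1 (-0.061 to 0.13). The alternatives were DESeq2 1.42.0, DESeq2 size factors, library size alone, no filter, a minimum of 10 counts per library, a joint model of the 4 groups, the block, and each library left out. Results for DHPS are not given, as it held 74 counts beside an overlapping gene.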

Additional observations from a re-analysis of the deposited data

How the results depend on the processing

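The number of polyamine genes called with Arg at 24 h, 1, became 2 (SAT1 and SMOX) with no filter on low counts and was 1 to 2 when a library was left out. At 48 h the count of 0 became 1 (SAT1) with no filter and 1 (SAT1, -0.70, adjusted p = 0.0288) with the replicate block, which rests on letters that were not shown to pair the wells, and it was 0 to 4 when a library was left out, with 4 without control 48 h replicate B. The block also put ARG2 past the threshold at 48 h (-0.83, adjusted p = 0.0343), ended the call of AZIN1 between the times with Arg (adjusted p = 0.0567), and moved no other count of polyamine genes by over 1.5 times. The counts between the times and for the interaction stayed within 1.5 times under all alternatives run. Over all genes, the 0 higher and 17 lower calls with Arg at 48 h became 42 and 127 with DESeq2, 199 and 374 with no filter, 43 and 141 with the block, and 4 and 37 with all 12 libraries in the fit, and 1152 and 1213 without control 48 h replicate B, and the 2 higher and 0 lower calls of the interaction became 9 and 12 with DESeq2 and 51 and 37 with no filter, and 28 and 18 without control 48 h replicate B. At 24 h the 398 higher and 549 lower calls ran from 126 and 233 without control 24 h replicate A to 647 and 882 without control 24 h replicate B. The cause of these shifts was not tested.

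Directions reversed for differences near 0 that were not called. OAZ1 between the times was -0.0038 with DESeq2 and -0.0049 with no filter in the control, and 0.018 with library size alone with Arg. When a library was left out, the Arg difference at 24 h ran from -0.059 to 0.12 for SRM, -0.19 to 0.047 for ODC1, -0.072 to 0.054 for OAZ2, and -0.32 to 0.11 for PAOX. At 48 h it ran from -0.043 to 0.051 for AMD1 and -0.087 to 0.14 for SMOX. Between the times it ran from -0.023 to 0.030 for OAZ1 in the control and -0.011 to 0.12 for OAZ2 with Arg. The interaction ran from -0.048 to 0.11 for SMS, -0.25 to 0.18 for SAT1, -0.15 to 0.087 for ODC1, -0.18 to 0.012 for SRM, and -0.35 to 0.079 for PAOX. PAOX, at 37 to 78 counts, and SMOX, at 164 to 312, are limited by depth.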
